A study of Mus musculus with 25 samples.

Results

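The transcripts of 10 receptor tyrosine kinases, Axl, Tyro3, Mertk, Egfr, Erbb2, Pdgfra, Pdgfrb, Fgfr1, Fgfr2 and Igf1r, were followed across 5 murine melanoma lines. They were taken as a fixed list of gene symbols, all 10 of which were found among the 55385 genes counted, and 58 receptor tyrosine kinases were listed in all. Each line was sequenced as 5 biological replicates (25 RNA-seq libraries in all), taken from untreated cultures at a confluency of 50%. WT31 was derived from Tyr∷NrasQ61K/°; INK4a−/− animals, RET from mice transgenic for MT/RET (the human RET proto-oncogene under the metallothionein promoter), D4M from the Tyr::CreER;BrafCA;Ptenlox/lox model, HCmel12 from an HGF-CDK4(R24C) primary tumour, and B16F10 luc2 was bought as an established line. WT31, B16F10 luc2 and RET are the lines with high or intermediate liver metastasis in this study (HIM-melanoma), and D4M and HCmel12 are those with low metastasis (LM-melanoma). The HIM lines grew in RPMI medium with 10% serum, HCmel12 in a supplemented RPMI with 10% serum and D4M in Advanced DMEM/F-12 with 5% serum, so line and medium cannot be told apart in comparisons with D4M or HCmel12. Each line is a single established culture, and its replicates are cultures of that line, so that p-values measure the spread between cultures and not between tumours.

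Receptor tyrosine kinases bind a ligand outside the cell, pair up and phosphorylate each other, which recruits adaptors such as Grb2, Shc1 and the regulatory subunit of PI3K and feeds the Ras-ERK and PI3K-AKT pathways. In melanoma, high AXL, EGFR and PDGFRB together with low MITF and SOX10 are known as features of a dedifferentiated state with reduced response to BRAF inhibition. Axl, Tyro3 and Mertk form the TAM family with the ligands Gas6 and Pros1, Egfr and Erbb2 belong to the ErbB family, and the others are receptors for the PDGF, FGF and IGF ligands.

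Between 24199083 and 25843286 counts were assigned per library. Replicates were alike, with a lowest correlation of 0.9785 across genes within a line and a highest of 0.948 between lines. A pair of libraries stood apart by the tyrosinase gene Tyr, which had 17.5 estimated counts in D4M replicate 1 against at most 4.0 in the other D4M libraries, and 744.4 in HCmel12 replicate 4 against at most 229.2 in the other HCmel12 libraries. Leaving out both libraries changed the call of 2 of the 100 comparisons of a receptor between 2 lines.

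The label of melanoma was borne out by melanocyte markers in 4 of the lines. Sox10, the neural crest factor of the melanocyte lineage, lay between 310.0 ± 23 TPM (RET) and 550.0 ± 46.0 TPM (WT31, SD, n = 5) in WT31, B16F10 luc2, RET and HCmel12, and at 0.0899 ± 0.124 TPM (n = 4) in D4M. Mitf, the master regulator of melanocytes, was at 2.3 ± 0.451 TPM in D4M and at 202.0 TPM or more on average in the other lines. All 12 melanocyte differentiation genes tested were lower in D4M than in each other line, a rule met by 15.7% of all genes. Tyr was at 0.0158, Mlana at 0.0859 and Pmel at 0.339 TPM in D4M, so that these defining markers of its label were near 0, while Pax3, a factor upstream of Mitf, was at 7.96 ± 0.264 TPM. The TPM of D4M leave out replicate 1, and over all 5 libraries the D4M means were 0.205 ± 0.343 CPM for Tyr, 0.687 ± 1.44 for Mlana, 2.08 ± 3.75 for Pmel and 0.552 ± 0.872 for Sox10. Of 14 genes listed for an invasive or dedifferentiated melanoma state, 11 were higher in D4M than in each other line, among them Fosl1 (169.0 ± 19.8 TPM), Zeb1 (30.4 ± 3.23 TPM) and Wnt5a (2.1 ± 0.521 TPM). Wnt5a, Fosl1 and Nt5e passed the filter on low counts through D4M alone and so had to differ, and of the 11 genes of the list that pass it without D4M, 8 were higher in D4M than in each other line, beside 16.5% of all such genes. Ngfr, also a marker of that state, did not follow: it was higher in WT31 (28.8 ± 17 TPM) than in each other line and was at 0.808 ± 0.469 TPM in D4M. HCmel12 had low Tyr (4.44 ± 3.65 TPM, and 2.82 ± 0.648 TPM without replicate 4) but kept Mitf (283.0 ± 50.0 TPM) and Sox10 (451.0 ± 45.8 TPM).

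D4M was the line in which most of these receptors were highest. Axl, Mertk, Egfr, Pdgfra, Pdgfrb, Fgfr1 and Igf1r, 7 of the 10, were higher in D4M than in each of the 4 other lines at an adjusted p under 0.05 (limma on voom-transformed counts), while 20% of the 15247 genes tested met the same rule. No receptor of the 10 was lower in D4M than in each other line, where the background was 15.7%. B16F10 luc2 stood at the other end, with Tyro3, Mertk, Erbb2, Fgfr1 and Igf1r lower than in each other line, 5 of 10 against a background of 6.83%, or 4 without Erbb2 under library-size scaling. HCmel12 had the highest Erbb2 and Fgfr2 (background 9.56%), of which Erbb2 was lost under library-size scaling, and the lowest Pdgfrb (background 6.85%). Axl was lower in RET than in each other line (background 5.06%), and no receptor was higher than in each other line in WT31, B16F10 luc2 or RET (backgrounds 13.8%, 8.81% and 7.07%) or lower than in each other line in WT31 (11.1%). All 10 receptors passed the filter on low counts, Egfr only through D4M and Fgfr2 only through HCmel12, so those 2 had to differ between lines and their calls count for nothing beyond that. Of the 9 receptors that pass the filter without D4M, 6 were higher in D4M than in each other line, beside 16.5% of all such genes. Mertk was the least firm of these, since its call against RET was lost under library-size scaling and its direction turned by TPM. Without Mertk, 6 of the 10 receptors remain, among them Egfr, which had to differ.

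Most pairs of lines differed in most receptors, as they did in most genes. Of the 100 comparisons of a receptor between 2 lines, 85 passed the test. Beside the share of all genes called in either direction, the receptors called were 8 of 10 for WT31 against B16F10 luc2 (72.8%), 8 for WT31 against RET (73.2%), 9 for WT31 against D4M (76.1%) and 9 for WT31 against HCmel12 (70.4%). They were 8 for B16F10 luc2 against RET (51.5%), 9 for B16F10 luc2 against D4M (77.7%), 8 for B16F10 luc2 against HCmel12 (69.1%), 9 for RET against D4M (77.1%), 8 for RET against HCmel12 (67.2%) and 9 for D4M against HCmel12 (72.5%). The direction was uneven: all 9 receptors that differed between B16F10 luc2 and D4M were lower in B16F10 luc2, where 38.9% of genes were lower. Mertk, Pdgfrb and Fgfr1 differed in all 10 pairs (Mertk not under library-size scaling), a pattern seen in 7.19% of genes. The receptors also spread widely in level, with a median range of the line means of 6.06 on the log2 CPM scale (CPM, counts scaled to a common library size with TMM factors), beside 1.41 over all genes tested. The range was 10.58 for Pdgfrb, 10.09 for Fgfr1, 8.94 for Egfr, 6.72 for Pdgfra, 6.13 for Axl and 5.98 for Mertk, and fell to 4.13 for Fgfr2, 3.03 for Igf1r, 2.58 for Tyro3 and 0.8 for Erbb2. The ranges of Pdgfrb, Egfr and Fgfr2 rest on lines with 3 or fewer counts in most libraries and depend on the small count that is added before the logarithm, while the median lies between Axl and Mertk, which were well counted. A larger range than that of Erbb2 was found in 72.9% of genes, and a larger one than that of Pdgfrb in 2.1%.

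**Figure D1:**
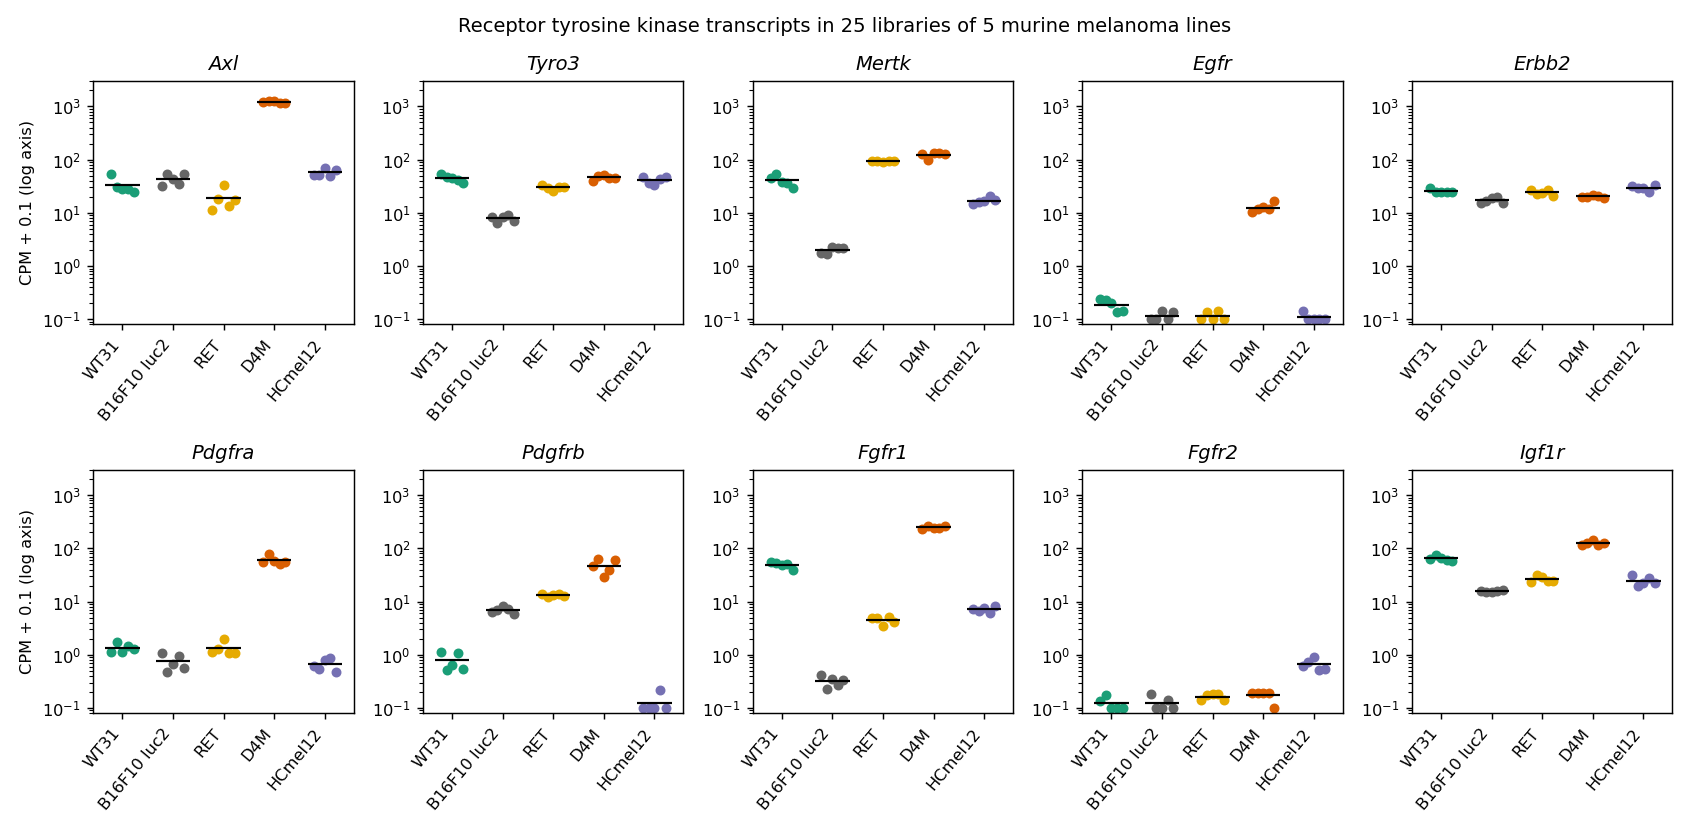
Each panel shows a receptor, each point a library (CPM + 0.1 on a log axis) and each black line the mean of the 5 libraries of a line. The D4M points lie above those of every other line for Axl (1162 to 1284 CPM), Egfr, Pdgfra, Pdgfrb, Fgfr1, Mertk and Igf1r, while Erbb2 stays between 15 and 33.9 CPM in all 25 libraries.

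In relation to the comparison of HIM- with LM-melanoma, receptors were counted that differed with one sign in WT31, B16F10 luc2 and RET. The same 7 receptors as above were lower in all 3 HIM lines than in D4M (background 23.7%), or 6 without Mertk under library-size scaling or by TPM, and none was higher (background 20.2%). These counts include Egfr, which passed the filter through D4M alone, so it had to differ and its call counts for nothing beside the background. Against HCmel12, Axl, Erbb2 and Fgfr2 were lower in the 3 HIM lines (background 15%) and Pdgfrb was higher (background 12.8%). Fgfr2 passed the filter through HCmel12 alone, so it had to differ and its call counts for nothing beside that background. The count of 3 fell to 1 without HCmel12 replicate 3 or 5 or WT31 replicate 2, 3 or 4, where Axl against B16F10 luc2 and Erbb2 against WT31 no longer passed, and it lay between 0 and 3 under other settings. Axl alone met the rule against both D4M and HCmel12, 1 of 10 beside a background of 12.9%, and it did so narrowly, with an adjusted p of 0.048 for B16F10 luc2 against HCmel12. That call was lost with edgeR's quasi-likelihood test (adjusted p = 0.098), with DESeq2 (adjusted p = 0.13) and on leaving out any one of 17 of the 25 libraries. These comparisons share the D4M and HCmel12 libraries.

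The TAM receptors were led by a different gene in different lines. Axl, a receptor tied to survival, migration and drug resistance in tumour cells, had 1216, 1284, 1249, 1162 and 1183 CPM in D4M replicates 1 to 5. It lay between 50.0 and 70.7 CPM in HCmel12, between 32.5 and 53.4 CPM in B16F10 luc2, between 24.2 and 53.2 CPM in WT31 and between 11.1 and 33.7 CPM in RET. Every D4M library was far above every library of the other lines, which overlapped with their neighbours in the order. Axl was 5.27 log2 higher in D4M than in WT31 (SE 0.19, adjusted p = 5.8e-19), 4.85 higher than in B16F10 luc2 (SE 0.18), 6.13 higher than in RET (SE 0.21) and 4.42 higher than in HCmel12 (SE 0.17). The step from B16F10 luc2 down to WT31, 0.42 log2, did not pass (adjusted p = 0.059), and that from WT31 down to RET, 0.86 log2, did (adjusted p = 0.0014). By TPM, which is scaled by transcript length and allows genes to be set beside each other, Axl reached 408.0 ± 20.7 TPM in D4M (SD, n = 4, TPM of D4M replicate 1 not used here), where it ranked 361 among all genes. It was at 20.3 ± 4.15 TPM in HCmel12, 15.5 ± 3.92 in B16F10 luc2, 13.4 ± 4.01 in WT31 and 6.97 ± 3.41 in RET (n = 5 each).

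Mertk, the TAM receptor best known for the uptake of dying cells by macrophages, was high in D4M and RET. It had 126.0, 100.0, 134.0, 131.0 and 125.0 CPM in the D4M libraries and 92.9, 92.9, 91.9, 95.4 and 93.7 CPM in the RET libraries. The 2 groups did not overlap, and D4M was 0.39 log2 above RET (SE 0.1, adjusted p = 0.00079), but by TPM the order was the other way, with 42.5 ± 1.19 TPM in RET and 38.2 ± 4.97 TPM in D4M. Under library-size scaling alone the difference was 0.19 log2 in the same direction and did not pass (adjusted p = 0.087). WT31 followed with 29.0 to 54.5 CPM, HCmel12 with 14.7 to 20.2 CPM and B16F10 luc2 with 1.62 to 2.14 CPM. Each step in this order passed the test, that from HCmel12 to B16F10 luc2 being 3.12 log2 (SE 0.25, adjusted p = 2.5e-11).

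Tyro3, the third TAM receptor, separated B16F10 luc2 from the rest. Its level was 6.26 to 8.91 CPM in B16F10 luc2 and 25.8 CPM or more in every other library: 25.8 to 34 CPM in RET, 33.7 to 47.1 in HCmel12, 36.1 to 53.7 in WT31 and 39.4 to 51.6 in D4M. Tyro3 was 1.96 log2 higher in RET than in B16F10 luc2 (SE 0.15, adjusted p = 3.1e-11). D4M, WT31 and HCmel12 were not separated, with a difference of 0.06 log2 between D4M and WT31 (SE 0.1, adjusted p = 0.57) and of 0.17 between D4M and HCmel12 (SE 0.1, adjusted p = 0.13).

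As a share of the summed TPM of the 3 genes, Axl took 88.1% ± 1.28 in D4M (n = 4), 80.0% ± 5.09 in B16F10 luc2, 49.2% ± 6.4 in HCmel12, 28.4% ± 4.13 in WT31 and 11.2% ± 4.64 in RET (n = 5 each). The share differed in all 10 pairs of lines in exact two-sided permutation tests over libraries (p between 0.0079 and 0.016, the smallest that 5 against 5 and 4 against 5 libraries allow, adjusted p = 0.024 over 40 tests). Mertk took 69.8% ± 2.46 in RET, and Tyro3 was the leading gene of WT31 with 38.9% ± 2.09, near the 32.7% ± 4.17 of Mertk. The summed level of the family was 463.0 ± 18.8 TPM in D4M and between 19.2 ± 3.75 (B16F10 luc2) and 61 ± 3.75 TPM (RET) elsewhere, so that the high Axl shares of B16F10 luc2 and D4M stood at very different amounts.

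The promoter of Axl is shown because Axl was the most abundant of the receptors in D4M. The gene lies on chromosome 7 (chr7:25757273-25788705, minus strand, GRCm38), and the 250 bases before its RefSeq start (chr7:25788734-25788983, minus strand, GRCm38.p6) are given 5′ to 3′ with the letters GGAATG, the core of a TEAD site, in capitals:
Axl: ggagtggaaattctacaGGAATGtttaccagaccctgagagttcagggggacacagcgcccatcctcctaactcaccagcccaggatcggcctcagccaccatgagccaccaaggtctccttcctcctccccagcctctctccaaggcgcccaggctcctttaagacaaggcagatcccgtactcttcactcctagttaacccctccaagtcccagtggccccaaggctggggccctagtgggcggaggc
The promoter of Erbb2 (chr11:98412234-98412483, plus strand) is set beside it, since it was the only other receptor promoter with these letters while its transcript varied least:
Erbb2: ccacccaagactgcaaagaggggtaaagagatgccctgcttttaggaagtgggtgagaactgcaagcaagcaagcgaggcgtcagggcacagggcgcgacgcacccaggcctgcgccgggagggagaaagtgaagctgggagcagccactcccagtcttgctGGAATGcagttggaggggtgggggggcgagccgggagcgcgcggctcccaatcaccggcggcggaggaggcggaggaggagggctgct
The letters begin at position -233 in Axl and -88 in Erbb2, counted from the start. Windows from 250 bases before to 50 bases after the start were searched on both strands for 8 of the 10 receptors, those with an entry in the RefSeq table. GGAATG was found in 2 of the 8 windows and in 14.7% of all 32851 windows of the table. The AP-1 letters TGANTCA (7.81% of all windows) and the M-box core CATGTG (14.2%) were found in none of the 8. The E-box CACGTG (7.15%) was found in Fgfr2 at position 28 and the SOX letters ACAAAG (18.7%) in Igf1r at position 9, on the opposite strand. No matches overlapped, and they describe letters only.

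Egfr was a D4M transcript. This receptor for EGF, amphiregulin and TGF-alpha had 223.2, 258.1, 285.3, 262.9 and 382.4 estimated counts in D4M replicates 1 to 5, 10.3 to 16.3 CPM. In WT31 it had 1.0 to 3.6 counts per library, in B16F10 luc2 and RET at most 1.0, and HCmel12 gave 1.0 count over its 5 libraries together. Counts were summed over the 5 libraries and scaled by depth with TMM factors. D4M was then 137.0-fold above WT31 (95% exact interval 78.4 to 266.0, from 12 counts in WT31). It was 776.0-fold above B16F10 luc2 (214.0 to 6410) and 805.0-fold above RET (222.0 to 6652), both from 2 counts. Against HCmel12 the ratio was 1554 (278.0 to 61419, from 1 count). The intervals cover counting error only. A count of 3 was taken as the floor of detection, so that Egfr was at or under it in every library of B16F10 luc2, RET and HCmel12. Even in D4M its level was modest, at 2.61 ± 0.358 TPM (n = 4). The promoter of Egfr (chr11:16751953-16752202, plus strand, GRCm38.p6), shown as that of a receptor detected above a few counts in D4M only, holds none of the letters searched:
Egfr: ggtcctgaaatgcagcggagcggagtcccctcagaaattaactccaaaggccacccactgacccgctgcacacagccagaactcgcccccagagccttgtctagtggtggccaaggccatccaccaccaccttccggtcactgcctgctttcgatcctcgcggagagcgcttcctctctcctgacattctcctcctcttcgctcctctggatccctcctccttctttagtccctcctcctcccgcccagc

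Erbb2, the ErbB member that has no ligand of its own and serves as a partner for the others, was the steadiest receptor. It had 24.1 to 33.9 CPM in HCmel12, 24.7 to 28.8 in WT31, 20.9 to 27.1 in RET, 19 to 21.8 in D4M and 15 to 19.9 in B16F10 luc2. Neighbouring lines overlapped throughout this order. HCmel12 exceeded B16F10 luc2 by 0.8 log2 (SE 0.09, adjusted p = 2.4e-08), but HCmel12 exceeded WT31 by only 0.2 log2 (SE 0.09, adjusted p = 0.037), and D4M exceeded B16F10 luc2 by 0.25 log2 (SE 0.1, adjusted p = 0.024). The last 2 calls were lost under library-size scaling (adjusted p = 0.1 and 0.37).

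Within the ErbB family the balance in D4M was turned by Erbb3, the kinase-impaired receptor for neuregulins and the usual partner of Erbb2 in melanocytes. Erbb3 was at 44.3 ± 6.29 TPM in WT31, 36.3 ± 5.84 in HCmel12, 23.3 ± 2.45 in RET, 6.8 ± 1.33 in B16F10 luc2 and 0.104 ± 0.0291 in D4M. It was lower in D4M than in each other line, by 5.81 log2 against B16F10 luc2 (SE 0.36, adjusted p = 7e-14) and by 8.39 against WT31 (SE 0.36). Of the summed TPM of Egfr, Erbb2 and Erbb3, Egfr took 31.1% ± 2.83 in D4M and at most 0.346% in any library of the other lines. Erbb3 took 1.25% ± 0.359 in D4M and from 56.7% ± 6.25 (B16F10 luc2) to 83.7% ± 1.44 (WT31) elsewhere. The Egfr share is a description, since Egfr was counted above the filter in D4M alone.

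**Figure D2:**
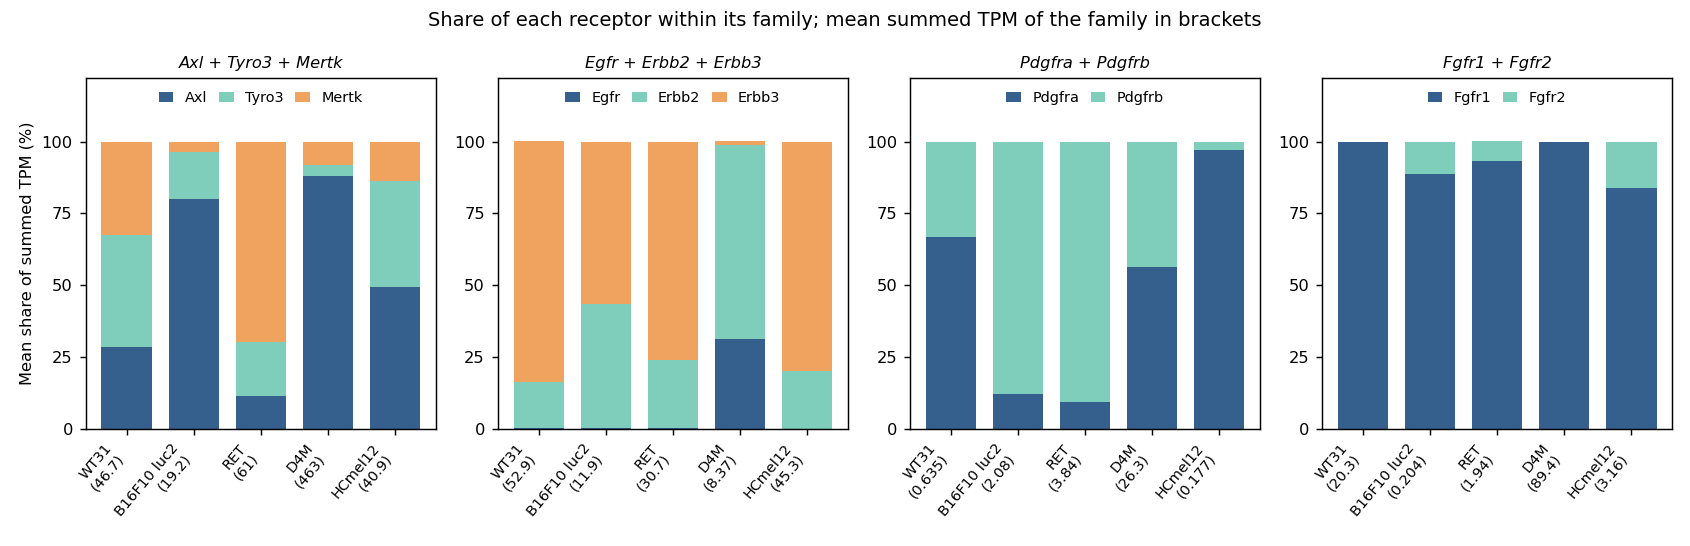
Stacked bars give the mean share (%) of each receptor in the summed TPM of its family in each line, with the mean summed TPM of the family in brackets (n = 5, D4M n = 4). Axl takes 88.1% in D4M and 11.2% in RET, and the Erbb3 part of the ErbB bars shrinks to 1.25% in D4M.

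Both PDGF receptors, which drive proliferation and migration of mesenchymal cells, were highest in D4M. Pdgfra had 56.3, 78.4, 57.3, 50.3 and 55.2 CPM in D4M replicates 1 to 5. It stayed at or under 1.89 CPM in every other library, between 0.366 (HCmel12) and 1.89 CPM (RET). D4M was 5.55 log2 above WT31 (SE 0.22, adjusted p = 1e-17), 5.62 above RET (SE 0.23), 6.54 above B16F10 luc2 (SE 0.28) and 6.72 above HCmel12 (SE 0.29). WT31 and RET did not differ detectably (0.07 log2, adjusted p = 0.85), nor did B16F10 luc2 and HCmel12 (0.18 log2, adjusted p = 0.7). The promoter of Pdgfra (chr5:75152001-75152250, plus strand, GRCm38.p6), shown as that of the receptor whose pattern was nearest to Axl among the 10, holds none of the letters searched:
Pdgfra: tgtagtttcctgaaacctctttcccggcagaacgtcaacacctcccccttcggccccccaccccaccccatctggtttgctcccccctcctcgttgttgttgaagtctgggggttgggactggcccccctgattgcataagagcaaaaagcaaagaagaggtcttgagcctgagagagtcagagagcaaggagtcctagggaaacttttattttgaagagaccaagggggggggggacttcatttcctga

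Pdgfrb was graded across the lines instead. It had 46.8, 62.0, 28.4, 38.7 and 61.2 CPM in D4M, 13.6, 12.3, 13.3, 13.5 and 12.6 CPM in RET and 6.15, 6.97, 8.0, 7.3 and 5.81 CPM in B16F10 luc2. It fell to between 0.418 and 1.02 CPM in WT31. In HCmel12, 3 counts were found in all, each of them in replicate 4, and the other 4 libraries had 0 of between 24204392 and 24525649 counts, which allows up to 3 counts per library. No groups overlapped, and each step passed. The step was 1.8 log2 between D4M and RET (adjusted p = 2.7e-10), 0.94 between RET and B16F10 luc2 (SE 0.23, adjusted p = 0.0011), 3.38 between B16F10 luc2 and WT31 (SE 0.44, adjusted p = 1.6e-07) and 4.46 between WT31 and HCmel12 (SE 0.88, adjusted p = 7.2e-05). The last step is a fitted value that rests on the 3 counts of HCmel12. By summed counts scaled by depth with TMM factors, D4M was 1966-fold above HCmel12 (95% exact interval 672.0 to 9536, from 3 counts). On the same scale RET was 539.0-fold above it (184.0 to 2616), B16F10 luc2 282.0-fold (96.2 to 1371) and WT31 28.3-fold (9.38 to 140.0). Pdgfrb made up 90.9% ± 3.24 of the summed TPM of the 2 PDGF receptors in RET, 88.1% ± 4.77 in B16F10 luc2, 43.7% ± 7.42 in D4M, 33.3% ± 12.7 in WT31 and 3.02% ± 6.75 in HCmel12, and 8 of the 10 pairs passed the exact permutation test (adjusted p = 0.024 each). D4M against WT31 (adjusted p = 0.24) and B16F10 luc2 against RET (adjusted p = 0.33) did not.

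Since PDGF receptors and Axl are also found in fibroblasts and Mertk in macrophages, markers of other cells were read in the same libraries. Of 11 macrophage and leukocyte markers, Ptprc was at 0.0177 ± 0.0159 TPM in D4M and Adgre1 and Tyrobp were listed at 0, and Mertk was at 38.2 TPM beside them. Of the 3 markers of that list that were tested, Cd68 was higher and Lyz2 and Fcer1g were lower in D4M than in each other line (20% and 15.7% of all genes), and the whole list summed to between 5.22 and 20.1 TPM in the D4M libraries and between 7.35 and 23.3 TPM in the others. Of 9 fibroblast markers, 6 were tested, and 4 of these (Col1a1, Col1a2, Col3a1 and Fap) were higher in D4M than in each other line, beside 20% of all genes. Col3a1 and Fap passed the filter through D4M alone and so had to differ. Of the 4 markers that pass it without D4M, 2 were higher in D4M, beside 16.5% of all such genes. The summed level of the list was 185.0 to 366.0 TPM in the D4M libraries against 0.663 to 68.6 TPM in the others. Col3a1 was at 150.0 ± 61.2 TPM in D4M, while Dcn was at 0.306 ± 0.134 TPM and Lum was listed at 0. Endothelial and keratinocyte lists summed to at most 9.74 and 6.02 TPM in any library. The part of fibroblast-like RNA in the D4M values was not tested, and in bulk RNA fewer cells that express a gene cannot be told from less RNA per cell.

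Fgfr1, the principal FGF receptor of mesenchymal cells (chr8:25513654-25575718, plus strand, GRCm38), covered a wide range of levels. It had 232.0, 265.0, 241.0, 239.0 and 262.0 CPM in D4M and 55.9, 53.4, 48.6, 50.7 and 38.3 CPM in WT31. HCmel12 had 5.91 to 8.22 CPM, RET 3.35 to 4.96 CPM and B16F10 luc2 0.124 to 0.318 CPM, which were 3.0 to 8.0 counts per library. No 2 lines overlapped. The steps were 2.34 log2 from D4M to WT31 (SE 0.07, adjusted p = 7.8e-20), 2.79 from WT31 to HCmel12 (SE 0.12), 0.7 from HCmel12 to RET (SE 0.16, adjusted p = 0.00052) and 4.25 from RET to B16F10 luc2 (SE 0.34). By TPM it was second to Axl in D4M (89.3 ± 6.0 TPM, n = 4) and led the 10 receptors in WT31 (20.3 ± 3.04 TPM, n = 5).

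Fgfr2, the FGF receptor typical of epithelial cells, was close to the floor everywhere. The HCmel12 libraries held 10.1 to 20.1 counts of it, and no library of another line held more than 2.1. Scaled by depth with TMM factors, summed counts in HCmel12 were 7.95-fold those of D4M (95% exact interval 3.82 to 19.1) and 9.06-fold those of RET (4.36 to 21.8). They were 24.7-fold those of WT31 (8.13 to 123.0, from 3 counts) and 23.3-fold those of B16F10 luc2 (7.65 to 116.0, from 3 counts). It reached 0.502 ± 0.23 TPM in HCmel12 (n = 5). Of its 31-base transcript sequences, 2.69% are shared with Ctbp2, the only gene that shares any, so that a small part of its reads could be divided between both. Fgfr1 took 83.8% ± 8.37 of the TPM of the pair in HCmel12 and 99.9% ± 0.0889 in D4M, a description only, since Fgfr2 passed the filter through HCmel12 alone.

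Igf1r, the receptor for IGF1 and IGF2 that feeds PI3K signalling, followed a narrower grade. It had 116.0, 126.0, 143.0, 117.0 and 128.0 CPM in D4M, 58.7 to 74.8 CPM in WT31, 23.4 to 31.4 CPM in RET, 19.4 to 30.9 CPM in HCmel12 and 14.7 to 16.6 CPM in B16F10 luc2. The libraries of RET and HCmel12 overlapped (0.12 log2, adjusted p = 0.35), and no other neighbours did. D4M was 0.96 log2 above WT31 (SE 0.09, adjusted p = 1.3e-10) and 3.02 above B16F10 luc2 (SE 0.11, adjusted p = 8e-19). Reads of Igf1r, Axl, Tyro3, Mertk, Erbb2 and Pdgfrb were nearly unique, with at most 0.185% of 31-base sequences shared with other genes, against 1.01% for Egfr, 3.75% for Fgfr1 and 5.57% for Pdgfra.

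**Figure D3:**
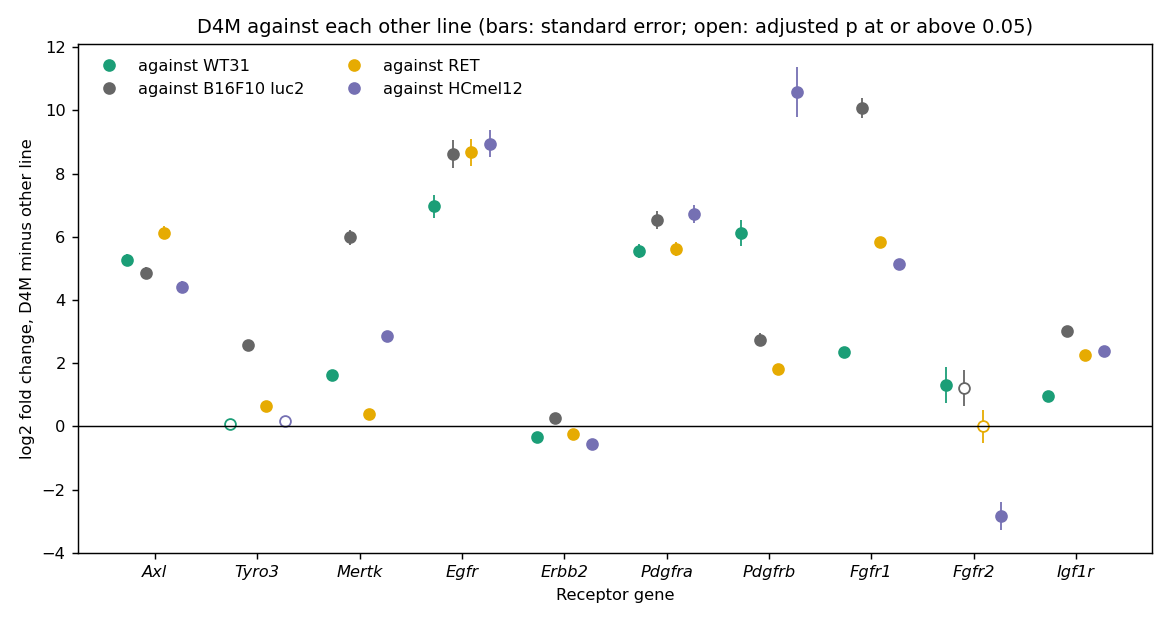
Points give the log2 fold change of each receptor in D4M against each other line (limma, 5 libraries per line), bars the standard error, and open points an adjusted p of 0.05 or more. Axl lies between 4.42 and 6.13 against all 4 lines, Erbb2 within 0.55 of zero, and Fgfr2 falls to -2.83 against HCmel12.

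Summed over the 10 receptors, D4M held 602.0 ± 28.9 TPM (n = 4), of which Axl made up 67.8% ± 0.879. The sum was 85.4 ± 12.8 TPM in WT31, 77.5 ± 4.27 in RET, 56.3 ± 4.9 in HCmel12 and 28.6 ± 3.5 in B16F10 luc2 (n = 5 each). The leading receptor was Fgfr1 in WT31 (20.3 TPM), Mertk in RET (42.5 TPM), and Axl in B16F10 luc2 (15.5 TPM), HCmel12 (20.3 TPM) and D4M. In D4M, 9 receptors reached a mean of 1 TPM, compared with 7 in RET, 6 in WT31 and in HCmel12 and 5 in B16F10 luc2.

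The ligands of these receptors were read from lists of the pathway. Gas6, the ligand of all TAM receptors, was at 10.2 ± 2.79 TPM in D4M and 1.02 ± 0.304 TPM in HCmel12, and between 0.0193 and 0.0545 TPM in the HIM lines. It was 3.42 log2 higher in D4M than in HCmel12 (SE 0.25, adjusted p = 2.2e-12) and higher in HCmel12 than in each HIM line. Pros1, the ligand of Tyro3 and Mertk, followed another order, with 41.2 ± 6.08 TPM in HCmel12, 25.4 ± 7.54 in WT31 and 6.95 to 8.39 TPM in the other lines, and was higher in HCmel12 than in each other line.

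ErbB ligands were abundant in D4M. Of 11 listed, 8 were tested, and Hbegf, Areg, Ereg, Btc, Nrg1 and Nrg2 were higher in D4M than in each other line, beside the 20% of all genes. Areg, which binds Egfr, was at 250.0 ± 23.4 TPM in D4M with 3894 to 4867 counts per library, and had at most 5 counts in any library of the other lines. Ereg, which also binds Egfr, was at 77.6 ± 19 TPM in D4M, and 1 count of it was found in the 20 other libraries. Btc was at 65.5 ± 8.34 TPM and Hbegf at 186.0 ± 16.1 TPM in D4M, while Hbegf lay between 4.3 and 13.1 TPM elsewhere. Nrg1, the ligand of the Erbb3 receptor, was at 11 ± 2.91 TPM in D4M, where Erbb3 itself was at 0.104 TPM. The other 2 tested were Tgfa and Egf. Tgfa was higher in WT31 (17 ± 3.28 TPM) than in each other line and was at 0.31 ± 0.151 TPM in D4M. Egf, the ligand that gave Egfr its name, was low in every line, from 0.21 ± 0.184 TPM in D4M to 0.408 ± 0.261 TPM in B16F10 luc2. The median log2 fold change of the 8 ligands in D4M lay between 5.78 (against WT31) and 7.6 (against HCmel12), beside -0.01 to 0.01 over all genes tested, and the median ratio of mean CPM with a floor of 3 counts per library was 5.87 log2 against WT31 and 7.35 against HCmel12. Areg, Ereg, Btc and Nrg1 passed the filter through D4M alone and so had to differ, which also raises the count and the medians, and of the 4 ligands that pass it without D4M, 2 (Hbegf and Nrg2) were higher in D4M, beside 16.5% of all such genes.

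The PDGF, FGF and IGF ligands were read in the same way. Pdgfa, Pdgfb and Pdgfc, 3 of 4 PDGF ligands, were higher in D4M than in each other line, beside 20% of all genes. Pdgfa was at 95.4 ± 14.0 TPM in D4M and 80.6 ± 14.6 in HCmel12, a difference of 0.35 log2 (SE 0.12, adjusted p = 0.011), and Pdgfc at 15 ± 5.53 TPM in D4M with no count in any B16F10 luc2 library. The Pdgfa call against HCmel12 was not repeated under library-size scaling, which moved the median of all genes by -0.17 log2 (D4M minus HCmel12). Pdgfd was at 0.612 ± 0.174 TPM in HCmel12 and 0.357 ± 0.105 in D4M, a difference that did not pass the test (adjusted p = 0.068). Of 15 FGF ligands 3 were tested, and Fgf2 (12.9 ± 0.836 TPM) and Fgf7 (22.9 ± 7.75 TPM) were higher in D4M than in each other line, Fgf2 having passed the filter through D4M alone. Fgf7 is a ligand of the Fgfr2 form of epithelial cells. The forms of Fgfr2 were not counted apart, and the gene as a whole had at most 2.1 counts per D4M library. Fgf1 was at 4.71 ± 1.28 TPM in WT31 and 2.23 ± 0.389 in D4M (0.66 log2 lower in D4M, adjusted p = 0.0063). Igf1 was at 2.62 ± 1.21 TPM in D4M and had at most 3 counts in any other library, so that it passed the filter through D4M alone, and Igf2 was too low to be tested, at no more than 0.113 TPM on average in any line.

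Binding proteins of IGF were split between the lines. Igfbp3, which holds IGFs in the medium, reached 3023 ± 359.0 TPM in D4M and 63.9 ± 8.82 in WT31, and lay at or under 0.156 TPM on average in the other lines. It was 5.84 log2 higher in D4M than in WT31 (SE 0.11, adjusted p = 4.1e-24). Igfbp4 was lower in WT31 (1.17 ± 0.667 TPM) than in each other line and was at 26.5 ± 3.97 TPM in D4M and between 73.3 and 133.0 TPM in the others. Igfbp2 was at 39.2 ± 14.5 TPM in WT31 and no more than 0.0553 TPM on average elsewhere. Of the 6 tested, 1 was higher in D4M than in each other line and none lower, beside 20% and 15.7% of all genes, and Igfbp5 was at 1.38 ± 0.797 TPM in D4M and 2.19 ± 1.3 in HCmel12 (adjusted p = 0.065).

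Several inhibitors of the receptors were highest in D4M. Of 19 inhibitors and turnover genes tested, 9 were higher in D4M than in each other line and none was lower, beside 20% and 15.7% of all genes. These calls were not repeated under library-size scaling, and by TPM Ptpn1 and Adam17, both among the 9, were not highest in D4M. Ptpn1 was at 31.5 ± 0.452 TPM in WT31 and 30.3 ± 1.43 in D4M. Adam17 was at 34.3 ± 1.78 TPM in B16F10 luc2 and 33.9 ± 0.341 in D4M. Lrig1, a membrane protein that lowers ErbB receptors, was at 88.5 ± 5.43 TPM in D4M, 5.08 ± 0.283 in WT31 and no more than 0.654 TPM on average elsewhere. Errfi1, an inhibitor of the Egfr kinase induced by its signal, was at 229.0 ± 58.5 TPM in D4M and between 8.04 and 13.7 TPM in the other lines. Grb10, an adaptor that restrains Igf1r, was present in WT31 (97.2 ± 7.46 TPM) and D4M (89.5 ± 11.6 TPM), which did not differ detectably (0.13 log2, SE 0.08, adjusted p = 0.15), and had at most 6 counts per library elsewhere. Ptprf, a receptor phosphatase, was instead highest in HCmel12 (10.6 ± 0.806 TPM). The median log2 fold change of the 19 genes in D4M was 0.43 against WT31, 1.58 against B16F10 luc2, 1.12 against RET and 0.55 against HCmel12.

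Adaptors and proximal effectors were called in both directions, at shares near those of all genes. Of 21 tested, Grb2, Shc1, Pik3r1, Pik3r2, Crk and Rasa1 were higher in D4M than in each other line, and Sos2, Gab1, Gab2 and Plcg1 were lower, 6 and 4 genes beside 20% and 15.7% of all genes, with a median log2 fold change between -0.01 (against WT31) and 0.58 (against RET). By TPM, Shc1 was not highest in D4M, with 105.0 ± 9.91 in WT31 and 104.0 ± 5.6 in D4M. Pik3r1 was nearly equal, at 16.8 ± 1.0 TPM in WT31 and 17.1 ± 3.02 in D4M. The calls of list genes were not repeated under library-size scaling. Rasa1, a GTPase-activating protein for Ras, was at 147.0 ± 6.62 TPM in D4M and between 24.8 and 29.7 TPM elsewhere. Nck2 (59.1 ± 0.95 TPM) and Irs2 (21.6 ± 3.65 TPM), an adaptor of Igf1r, were higher in WT31 than in each other line. Plcg2 was at 17.6 ± 2.65 TPM in HCmel12 and 11.3 ± 2.09 in D4M, a difference of 0.54 log2 (SE 0.11, adjusted p = 0.00011).

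**Figure D4:**
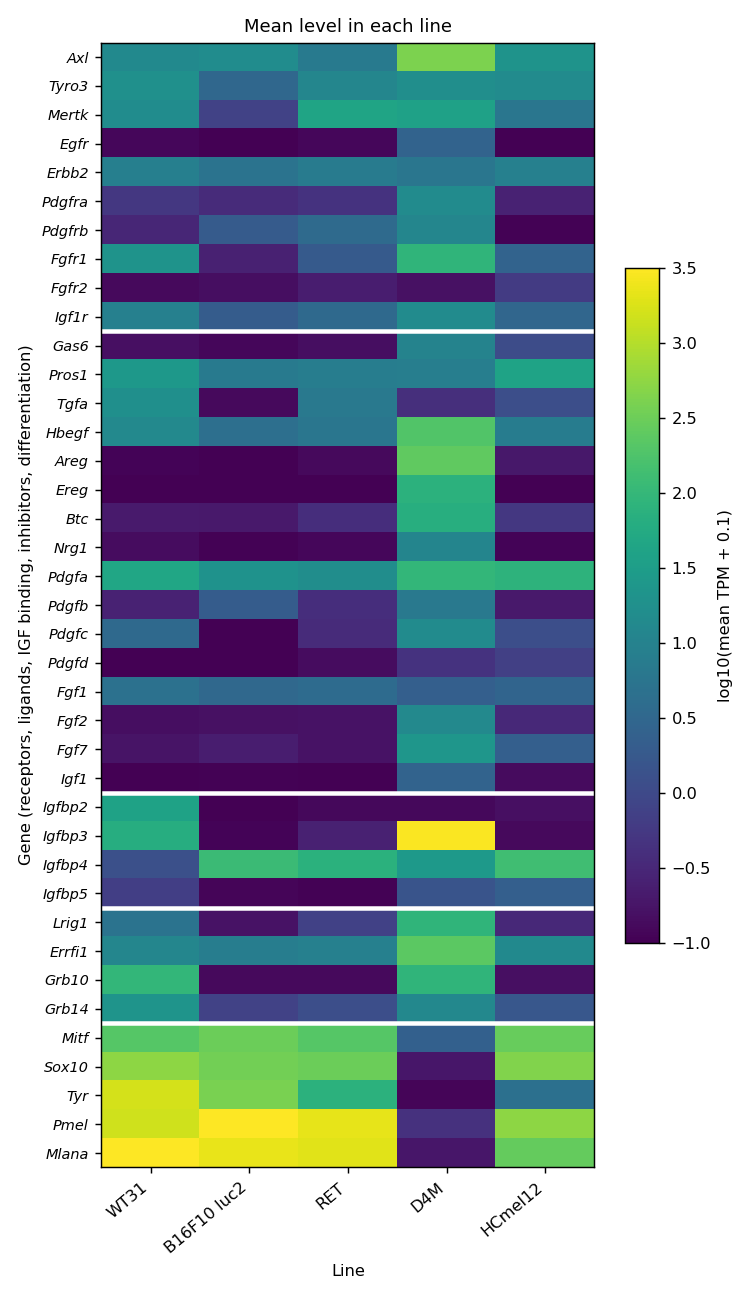
Colour gives log10(mean TPM + 0.1) in each line (n = 5, D4M n = 4) for the receptors, their ligands, IGF binding proteins, inhibitors and melanocyte differentiation genes, in blocks split by white lines. The D4M column is bright for Axl (408.0 TPM), Areg (250.0 TPM) and Igfbp3 (3023 TPM) and dark for Sox10 (0.0899 TPM) and Tyr (0.0158 TPM).

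The remaining receptor tyrosine kinases were read by the same rule. Of the other 48, 31 were tested, and 9 of these (29.0%) were higher in D4M than in each other line and 5 (16.1%) lower, beside 20% and 15.7% of all genes. Flt1, Flt3 and Styk1 passed the filter through D4M alone, and of the 28 that pass it without D4M, 6 (21.4%) were higher in D4M, beside 16.5% of all such genes. The difference from the 10 receptors was not tested. Flt1, a receptor for VEGF, was at 41.6 ± 4.01 TPM in D4M and at most 0.0395 TPM on average elsewhere. Kit, the receptor that melanocytes depend on, ran the other way, with 172.0 ± 34 TPM in WT31, 34.7 ± 5.36 in HCmel12, 2.05 ± 0.442 in B16F10 luc2, 0.303 ± 0.126 in RET and 0.00476 ± 0.00952 in D4M. Ror2 was a WT31 transcript (40.1 ± 4.51 TPM, at most 0.132 TPM on average elsewhere). Epha3 was at 29.7 ± 3.72 TPM in RET, 20.7 ± 4.25 in B16F10 luc2 and 9.34 ± 2.57 in HCmel12. It was near 0 in both D4M (0.0963 ± 0.0577 TPM) and WT31 (0.0495 ± 0.0372 TPM). Among related receptors, Fgfr3 was higher in RET (5.08 ± 3.57 TPM) than in each other line, while Fgfr4 was at 1.25 ± 0.278 TPM in WT31. Fgfr4 and Ror2 passed the filter through WT31 alone and so had to differ. The heparan sulfate co-receptor Sdc3 was at 1433 ± 109.0 TPM in WT31 and 135.0 ± 9.21 in D4M, and 12.4 to 33.8 TPM in the others.

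For each receptor, the genes with the most similar pattern over the 5 line means were found by the root mean squared difference of centred log2 CPM. Erbb2 had close companions, Adnp (0.05) and Ikzf5 (0.06), and so had Tyro3 with Gm47992 (0.15) and A530072M11Rik (0.17), Igf1r with Pdp1 (0.15) and Bace1 (0.23), and Pdgfra with Gli2 (0.18) and Opn3 (0.21). Those of Axl were Lrrc10b (0.26) and Omp (0.29), and those of Egfr Slco4a1 (0.23) and Zcchc3 (0.24). Fgfr2 was nearest to Camk4 (0.28) and Hrc (0.29), and Mertk to Pcdhgb7 (0.47) and Fam160a1 (0.54). Fgfr1 was nearest to the PDGF ligand Pdgfc (0.63) and the integrin Itga2 (0.74), and Pdgfrb to Cyp26b1 (0.75) and Slco3a1 (0.87), the least close of the pairs. Several of these genes are near the limit of detection, such as Lrrc10b at 1.26 TPM in D4M, and with 5 lines a like pattern is a description only. None of the 10 receptors was among the nearest 2 of another: the nearest receptor to Axl was Pdgfra (1.06), to Pdgfra Egfr (1.02) and to Fgfr1 Mertk (2.03).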

How the data were processed

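RNA-seq reads of 25 libraries (5 lines, 5 replicates each) were trimmed and pseudoaligned by the authors, with Trim Galore 0.6.4 and kallisto 0.4.6 on GRCm38.p6 named in the submitters' processing notes. The paper's methods give another version number for kallisto, so the version is not settled here. The annotation release is not given in the sources used here. The estimated counts, deposited by the authors per gene and library, were used unrounded (24.5 to 26.61% of the genes in a library had a value that was not whole). The TPM values, which the authors deposited with each library summing to a fixed total, were scaled by transcript length and were read for 24 libraries. Symbols were matched by Ensembl identifier for 55144 of 55385 genes.

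Genes were kept by filterByExpr of edgeR 4.0.16 with its default minimum of 10 counts, which left 15247, and scaled with TMM factors. Lines were compared with voom and limma 3.58.1 in R 4.3.3, with one mean per line, all 25 libraries and Benjamini-Hochberg adjustment over all tested genes in each of 10 comparisons. All adjusted p-values are from limma at a threshold of 0.05 unless another test is named. Fold changes are thus on the log2 CPM scale with the small count that voom adds. Shares of a family were compared by exact two-sided permutation tests over libraries, adjusted over 40 tests. Ratios of low genes were taken from summed counts scaled by depth with TMM factors, with an exact binomial interval of 95%. On simulated counts of 14582 genes (RET against D4M), 99 of 100 changed by 1 log2 and 100 of 100 changed by 2 log2 were recovered. Recovery at the counts and spread of each receptor, with a pooled SD within lines from 0.15 (Erbb2) to 0.88 log2 (Fgfr2), was not tested.

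The 10 receptors, the lists of ligands, binding proteins, adaptors, inhibitors, related receptors and cell type markers, and the motifs were chosen with earlier results of these data known. All receptors were named, as were up to 4 tested genes per list with the largest range of line means, the ligands of the TAM, PDGF and IGF receptors, 5 genes of melanocyte differentiation and, for each receptor, the 2 genes with the nearest pattern. Other genes, namely those of marker lists and those called in a list, were named after their values were seen. Promoter windows are those of RefSeq on GRCm38.p6, and shared 31-base sequences were counted in the GENCODE vM21 transcripts. Alternatives were other scalings and filters, edgeR's quasi-likelihood test, DESeq2 1.42.0, log2 TPM, stricter thresholds, a replicate block, fits of 2 lines only and leaving out each library.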

Additional observations from a re-analysis of the deposited data

Results flagged for a closer look

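Among 40 sets of 5 libraries (a receptor in a line, with a mean of at least 10 counts), 2 held a library far from the others by the gap to its nearest neighbour relative to the whole range, where chance marks about 1 in 20. Mertk was at 100.0 CPM in D4M replicate 2 and at 125.0 to 134.0 CPM in the other D4M libraries. Erbb2 was at 28.8 CPM in WT31 replicate 1 and at 24.7 to 25 CPM in the other WT31 libraries.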

How the results depend on the processing

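Of 2500 receptor comparisons refitted with 1 library left out, 2444 kept their direction and side of the threshold, 44 lost the call, 12 gained it and none reversed. Of 1318 under other settings, 1229 were kept, 77 lost, 7 gained and 5 reversed. The reversals were Mertk in RET minus D4M, 0.16 with log2(TPM + 0.1) (limma, adjusted p = 0.31), filtered log2(TPM + 1) (adjusted p = 0.24) and unfiltered log2(TPM + 1) (adjusted p = 0.35), and the Egfr log2 fold change, WT31 minus RET, at -0.0024 with log2(TPM + 1), filtered or not. Library-size scaling alone moved the median of all genes in D4M by between -0.15 (against B16F10 luc2) and -0.22 log2 (against WT31), and reversed no receptor. Counts of a few counts per library (Egfr, Fgfr2 and Pdgfrb outside their high lines) limit the precision of those levels.

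Axl as the receptor lower in the HIM lines than in both D4M and HCmel12 (1 of 10) became 0 with edgeR's quasi-likelihood test, DESeq2, a fold limit of 1 log2, an adjusted p under 0.01, no filter and every log2 TPM setting, and 0 to 1 with a library left out (0 without B16F10 luc2 replicate 1, 3 or 4, any D4M library, HCmel12 replicate 2, 3 or 5, RET replicate 2, 4 or 5, or WT31 replicate 2, 3 or 4). The receptors lower in the HIM lines than in HCmel12 (3) became 1 with the fold limit, the stricter p, no filter and unfiltered log2(TPM + 1), and 0 with filtered log2 TPM at either added value, and 1 to 3 on leaving out a library (1 without HCmel12 replicate 3 or 5 or WT31 replicate 2, 3 or 4). The receptor higher in the HIM lines than in HCmel12 (1) and the one lowest in HCmel12 (1) became 0 with log2(TPM + 1), filtered or not. The receptors highest in HCmel12 (2) became 1 with library-size scaling, the fold limit, the stricter p, no filter and unfiltered log2(TPM + 1), 0 with filtered log2 TPM at either added value, and 1 to 2 with a library left out (1 without HCmel12 replicate 1, 3 or 5, WT31 replicate 2, 3, 4 or 5). The cause was not tested. The fold limit left 4 receptors for B16F10 luc2 against RET, 5 each for B16F10 luc2 and RET against HCmel12, 3 lowest in B16F10 luc2, 0 lowest in RET and 16 of 40 neighbouring steps (28 without it).

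Asking for 10 counts in every library kept only 5 receptors in the test, so counts fell by construction: 4 called for WT31 against each other line, RET against HCmel12 and D4M against HCmel12, and 5 for the other 4 pairs, with 3 lower in the HIM lines than in D4M, 0 higher than in HCmel12, 3 highest in D4M, 1 highest and 0 lowest in HCmel12, and 15 neighbouring steps. With a library left out, 14 to 28 of 40 family shares passed (27 with all), 6 to 10 for Axl, 1 to 5 for Egfr, 5 to 8 for Pdgfrb and 2 to 5 for Fgfr1. Those of Egfr and Fgfr1, and those of Pdgfrb with HCmel12, rest on receptors near 0 counts and are descriptions only. The low values are those without a D4M library, since 3 against 5 libraries allow no exact p below 0.036.

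The replicate numbers did not pair the samples: over 50 pairs of libraries with the same number in different lines, the deviations from the line means had a median correlation of 0 (-0.091 to 0.104), and 3 of 25 libraries were most like another of their number. With a replicate block 96 of 100 comparisons were kept, 2 lost and 2 gained, with 1 receptor lower in the HIM lines than in HCmel12, 0 also lower than in D4M and 1 highest in HCmel12.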
